A study of Mus musculus with 15 samples.

Results

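The genes described here encode the proteins of the cytosolic ribosome. They were chosen by name, as protein-coding genes whose mouse symbol is Rpl or Rps followed by a number and at most a short suffix, is Rplp0, Rplp1 or Rplp2, or is Rpsa, without the Rps6k kinases. Of the 56980 genes in the table, 84 met this rule, 33 of the small subunit and 51 of the large subunit. A few other ribosome components, Rpl36al among them, fall outside the naming rule and were followed as a separate list of 4 genes. Another 5 symbols of the same form do not belong to protein-coding genes and were left out. RNA was measured by bulk RNA-seq in 15 libraries, each labelled as 1 mouse, from DBA/2J-mdx mice, which lack dystrophin and develop muscular dystrophy. Tibialis anterior (TA) muscle came from 4 mice given vehicle and 4 given dasatinib and quercetin (D+Q), a senolytic pair, 2 times per week for 2 months from 3 months of age, with collection at 5 months. Heart came from 4 mice given vehicle and 3 given D+Q 2 times per week for 4 months from 12 months of age, with collection at 16 months. Every group carries the mdx mutation and none is healthy. Since TA and heart were collected at different ages and after different durations, tissue, age and duration of treatment change together and cannot be told apart. All 4 D+Q TA mice were male, and 2 of the 3 D+Q hearts were labelled female. Both vehicle groups held 2 males and 2 females.

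Each ribosome joins a small subunit, which reads the mRNA, and a large subunit, which forms peptide bonds. Nearly all of its proteins are made in equal numbers, and their mRNAs share a 5′ terminal oligopyrimidine tract through which mTOR signalling governs their translation, so that mRNA levels are only a part of their control. Most subunit positions are filled by 1 gene, but several have a paralogue, and Rpl3l, whose product replaces that of Rpl3 near the peptidyl transferase centre, is made in skeletal and heart muscle.

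Levels are given as TPM, the length-corrected share of transcripts that a gene takes in its library, so the read depth is unknown and precision comes from the spread between mice alone. Between 21830 and 25378 genes were above 0 per library. The labelled tissues matched their defining markers, with a summed TPM of 8 skeletal muscle genes from 47980 to 58838 in TA and from 1330 to 1783 in heart, and of 6 ventricular genes from 74.8 to 190 in TA and from 22901 to 30360 in heart. Sex read from Xist and Y-linked genes went against the label in 1 library, D+Q heart replicate 3, labelled male, so by expression all 3 D+Q hearts were female and all 4 D+Q TA mice male, and in D+Q mice sex goes with tissue and cannot be told apart from it. Vehicle TA replicate 4 stood apart from the other TA libraries in these genes, as described below, and 29.1% of its TPM lay in genes of the mitochondrial genome, against 22.7% to 25.2% in the other 7. Pseudogene rows named after a member, 321 in all, held 672 to 948 TPM per library in sum, and reads shared with such near-identical copies make the single-gene levels of Rpl3, Rpl34, Rps18 and Rpsa in particular uncertain.

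Rpl3l (ENSMUSG00000002500) lies on chromosome 17 of GRCm39, from 24946751 to 24955119 on the plus strand, and Rpl3 (ENSMUSG00000060036) on chromosome 15, from 79961825 to 79976069 on the minus strand. Both canonical transcripts have 10 exons. Their proteins have 407 and 403 residues, of which 310 of 402 aligned residues are identical (77.1%), and 73.7% of the aligned coding bases match. The start of each coding sequence, bases 1 to 120 of the GENCODE M39 transcripts, is shown because reads must be told apart by such differences. Capitals mark the 31 bases at which the 2 genes differ.
Rpl3l: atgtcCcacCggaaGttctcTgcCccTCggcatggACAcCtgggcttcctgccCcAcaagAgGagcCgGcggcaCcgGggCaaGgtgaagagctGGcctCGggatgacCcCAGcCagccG
Rpl3: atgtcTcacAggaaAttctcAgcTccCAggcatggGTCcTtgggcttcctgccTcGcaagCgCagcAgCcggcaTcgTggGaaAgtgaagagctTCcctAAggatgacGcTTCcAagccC
The differences are spread along the stretch, and 2 pseudogene rows of the table are named after Rpl3 and can share reads with it.

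Summed over the 84 genes, levels were 17805, 17869, 17075 and 15140 TPM in vehicle TA and 17916, 16362, 16147 and 18168 TPM in D+Q TA. In heart the sums were 13897, 16887, 15723 and 14511 TPM with vehicle and 15415, 16846 and 15435 TPM with D+Q. The treatment groups overlapped in both tissues, and the vehicle hearts with the lowest sums lay below every TA library. Ribosomal protein mRNA was thus 1.39% to 1.82% of all TPM. The group means were 16972 ± 1274 TPM (SD, n = 4) in vehicle TA, 17148 ± 1041 TPM (SD, n = 4) in D+Q TA, 15254 ± 1327 TPM (SD, n = 4) in vehicle heart and 15899 ± 820 TPM (SD, n = 3) in D+Q heart. Without the mitochondrial genome in the total, the shares were 2.11% to 2.38% in TA and 1.95% to 2.34% in heart, and the tissues overlapped.

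**Figure D1:**
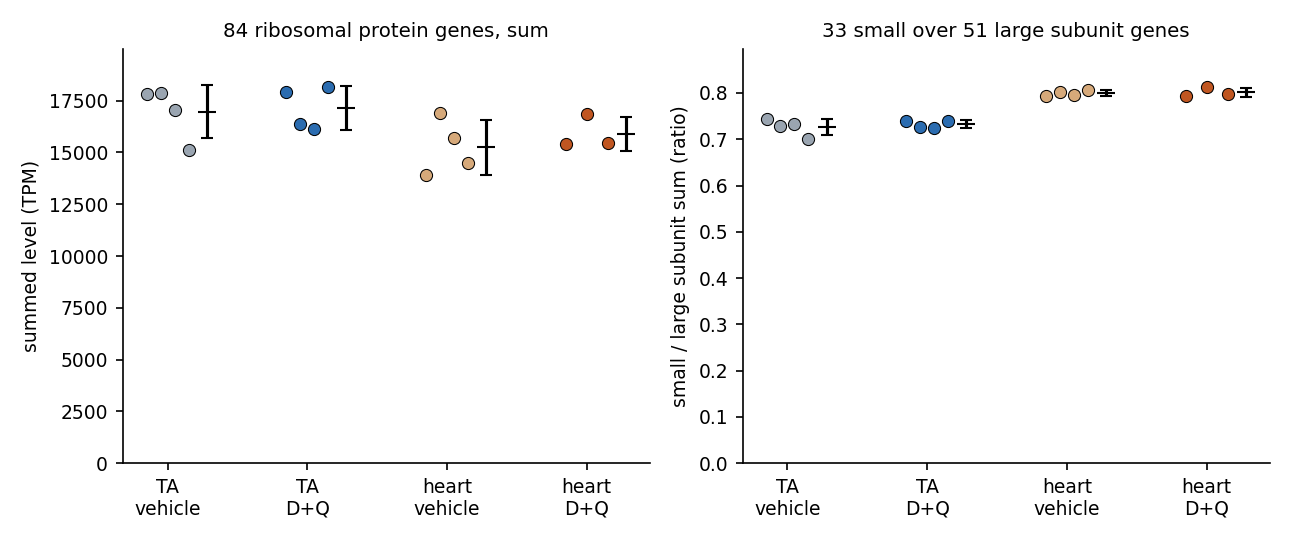
Left, summed TPM of the 84 ribosomal protein genes in each library, and right, the sum of the 33 small subunit genes divided by that of the 51 large subunit genes. Each point is 1 mouse, and bars give the group mean and SD. The sums overlap between treatments in both tissues, while the 8 TA ratios lie between 0.701 and 0.743 and the 7 heart ratios between 0.793 and 0.813.

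The balance between the subunits differed between tissues. Small subunit TPM divided by large subunit TPM was 0.743, 0.728, 0.732 and 0.701 in vehicle TA and 0.740, 0.727, 0.724 and 0.740 in D+Q TA. The same ratio was 0.793, 0.801, 0.797 and 0.807 in vehicle heart and 0.793, 0.813 and 0.797 in D+Q heart. Every heart library was above every TA library, and the treatment groups overlapped within each tissue. This ratio is formed within a library and does not depend on how libraries are scaled.

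Levels of single members spanned a wide range. Among the highest means in TA were those of Rps24, a small subunit protein, at 650 TPM, the stalk protein Rplp1 at 545, Rpl23a at 513 and Rps27 at 468 TPM. Among the highest in heart were Rps24 at 617, Rps27 at 493, Rplp1 at 490 and Rps29 at 482 TPM. Rplp1 was above Rps27 in each of the 8 TA libraries, although their ranges over mice, 394 to 600 and 381 to 505 TPM, overlapped. The 5 lowest members in TA were Rpl22l1, Rpl7l1, Rps4l, Rpl39l and Rpl10l, all of them paralogues, and the same 5 were lowest in heart. Among members with a group mean of at least 10 TPM, the median coefficient of variation between mice was 10.8% in vehicle TA, 7.1% in D+Q TA, 9.25% in vehicle heart and 5.47% in D+Q heart. Over all 15 libraries, Rpl3l varied most of the 81 members ranked, with a coefficient of variation of 42.5%, and Rps25 least, with 6.4%.

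Rpl3l was high in TA and lower in heart. Its level was 241, 241, 223 and 160 TPM in vehicle TA and 212, 239, 208 and 227 TPM in D+Q TA. In heart it was 78.4, 68.2, 92.1 and 84.7 TPM with vehicle and 114, 113 and 109 TPM with D+Q. All TA libraries were above all heart libraries, the TA treatment groups overlapped, and each D+Q heart exceeded each vehicle heart. Rpl3, the form made in every tissue, was at 45.5, 47.0, 43.1 and 39.97 TPM in vehicle TA and 54.2, 37.5, 36.0 and 53.1 TPM in D+Q TA. Its heart levels were 45.6, 67.5, 49.3 and 48.0 TPM with vehicle and 45.3, 47.1 and 43.3 TPM with D+Q. Rpl3 overlapped between all groups, and vehicle heart replicate 2 held both the highest Rpl3 and the lowest Rpl3l of the hearts.

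**Figure D2:**
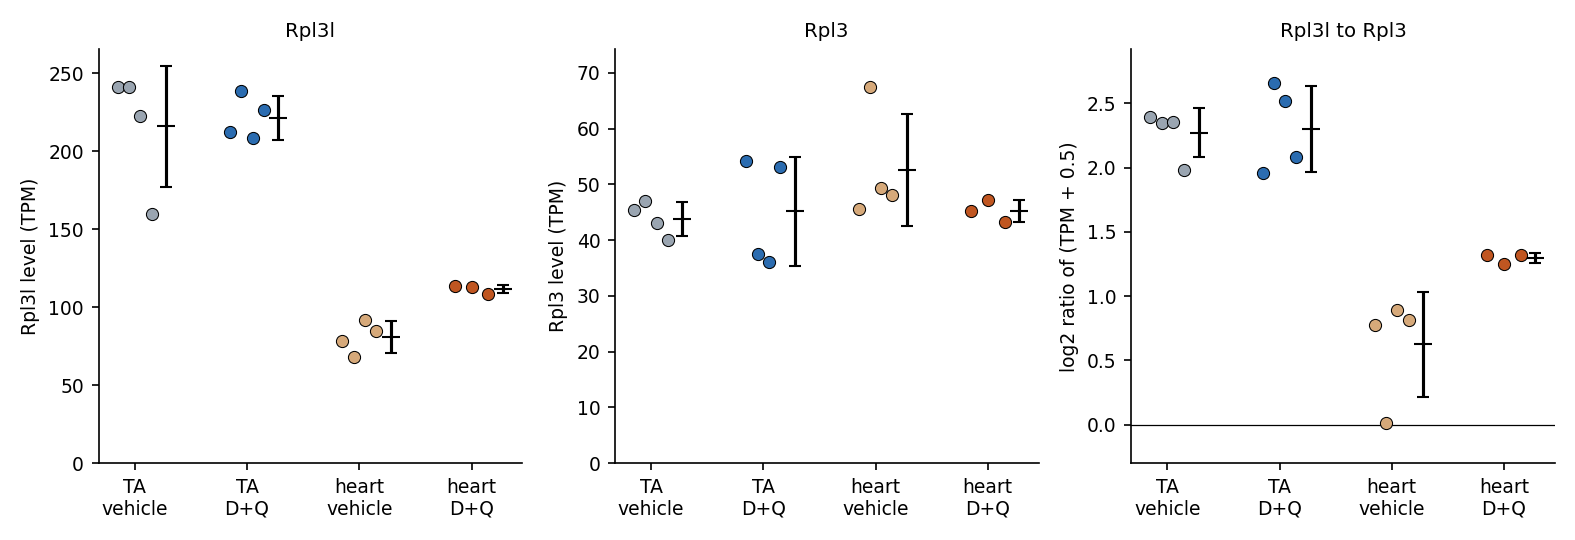
TPM of Rpl3l (left) and Rpl3 (middle) and the log2 ratio of the pair (right) in each mouse, with the group mean and SD as bars. Rpl3l and the ratio separate TA from heart and D+Q heart from vehicle heart, while Rpl3 overlaps between the 4 groups.

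Rpl3l made up 80.0% to 84.1% of the TPM of the pair in vehicle TA, 79.6% to 86.4% in D+Q TA, 50.3% to 65.1% in vehicle heart and 70.6% to 71.5% in D+Q heart. The log2 ratio of Rpl3l to Rpl3, with 0.5 added to each TPM, was 2.27 ± 0.19 (SD, n = 4) in vehicle TA and 2.30 ± 0.33 (SD, n = 4) in D+Q TA. It was 0.62 ± 0.41 (SD, n = 4) in vehicle heart and 1.297 ± 0.038 (SD, n = 3) in D+Q heart. Vehicle TA exceeded vehicle heart by 1.65 on this log2 scale (exact permutation test, two-sided, p = 0.0286, adjusted over 4 comparisons 0.0381). D+Q TA exceeded D+Q heart by 1.01 (exact permutation test, two-sided, p = 0.0286, adjusted 0.0381). D+Q heart exceeded vehicle heart by 0.67 (exact permutation test, two-sided, p = 0.0286, adjusted 0.0381), and the TA groups differed by 0.03 (exact permutation test, two-sided, p = 0.914, adjusted 0.914). The value of 0.0286 is the smallest that these group sizes allow, and with 1 mouse left out of the heart comparison or of the D+Q tissue comparison the test cannot pass 0.05. Vehicle heart replicate 2 had a log2 ratio of 0.015, against 0.77 to 0.90 in the other 3 vehicle hearts, and without it the D+Q heart difference was 0.47 (exact permutation test, p = 0.1, the smallest possible). That library also had the highest summed TPM of 5 atrial genes, at 4260, against 864 to 2221 in the other vehicle hearts and 382 to 427 in the D+Q hearts.

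The 2 pseudogene rows of Rpl3 summed to 41.7, 67.6, 48.0 and 46.2 TPM in vehicle heart and 38.7, 46.9 and 41.0 TPM in D+Q heart, about as much as Rpl3 itself. In TA they summed to 28.3 to 43.1 TPM with vehicle and 35.3 to 52.9 TPM with D+Q. When these rows were added to Rpl3, the log2 ratio fell to 1.37 ± 0.10 (SD, n = 4) in vehicle TA, 1.35 ± 0.33 (SD, n = 4) in D+Q TA, -0.34 ± 0.43 (SD, n = 4) in vehicle heart and 0.36 ± 0.09 (SD, n = 3) in D+Q heart. The differences between groups moved little, to 1.71 for vehicle TA against vehicle heart and 0.70 for D+Q heart against vehicle heart (exact permutation test, p = 0.0286 for each). Whether Rpl3l exceeds Rpl3 in vehicle heart therefore depends on how these rows are counted, since Rpl3l was 50.3% to 65.1% of the pair without them and 33.5% to 48.6% with them.

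The other paralogues were low beside their partners. Rpl22l1, whose product is an RNA-binding relative of that of Rpl22, was at 33.4, 21.5, 26.7 and 11.9 TPM in vehicle TA and 22.3, 23.4, 22.5 and 25.4 TPM in D+Q TA. In heart it was at 13.02, 12.3, 15.5 and 11.7 TPM with vehicle and 13.4, 12.4 and 13.2 TPM with D+Q. Apart from vehicle TA replicate 4, every TA library was above every heart library. Rpl22l1 was 16.4% to 18.4% of the pair with Rpl22 in D+Q TA and 9.9% to 10.6% in D+Q heart, and vehicle TA ranged from 7.61% to 23.0%. Rps27l, a paralogue of Rps27 known as a p53 target, was 16.1% to 19.1% of its pair in D+Q TA, 17.2% to 23.1% in vehicle TA, 13.3% to 15.2% in D+Q heart and 14.2% to 16.4% in vehicle heart. Its share in every TA library but 1, of the D+Q group, was above that of every heart library. Rpl7l1, a relative of Rpl7, was at 7.73 to 16.5 TPM and overlapped between all groups.

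The remaining paralogues were near the lower limit. Rps4l, a single-exon relative of the X-linked Rps4x, was at 0.23 to 2.14 TPM in TA and 1.47 to 3.66 TPM in heart, where Rps4x was at 119 to 173 and 127 to 160 TPM. The testis forms Rpl39l and Rpl10l had at most 1.13 and 0.04 TPM. Neither passed the filter of 0.5 TPM in 3 libraries, so 82 of the 84 members were tested in every comparison. Rpl10l was above 0 in 1 library alone, vehicle TA replicate 1.

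To ask whether D+Q changed ribosomal protein mRNA in TA, the 2 TA groups were compared with limma, with 1 surrogate variable in the model. A gene was called when its adjusted p was under 0.05 and its log2 fold change exceeded 0.5 in size. Of the 82 members tested 0 were called, against 0.0% of the 16298 genes tested, and 0 members had an unadjusted p under 0.05, against 2.99% of all genes. Since this fit called 0 genes in all, the lack of calls does not set the members apart. The study, with DESeq2 on counts, did report called genes for this comparison at the same thresholds. The member with the smallest p was Rpl14, at 216, 214, 215 and 288 TPM with vehicle and 223, 188, 187 and 209 TPM with D+Q. Its log2 fold change was -0.21 (standard error 0.14, adjusted p = 0.999), and its groups overlapped. Rps15a, a small subunit protein, was at 97.3, 92.4, 91.1 and 89.5 TPM with vehicle and 83.0, 74.8, 88.0 and 85.6 TPM with D+Q. It was the single member whose groups did not overlap, all D+Q mice being lower, which 1.25% of all genes were and 0.264% in the higher direction, and its log2 fold change was -0.16 (standard error 0.11, adjusted p = 0.999). The 8 pseudogene rows of Rps15a held 23.5 to 39.7 TPM with vehicle and 27.4 to 40.1 TPM with D+Q. The separation therefore depends on how reads are divided between these rows and the gene. The next by p were Rps4l, Rpl11, which binds MDM2 outside the ribosome, and Rpl26, with log2 fold changes of -0.37, -0.13 and -0.13.

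Across the 82 members, TA log2 fold changes ran from -0.37 to 0.19, with a median of -0.01 against -0.07 for all genes tested. Above 0 there were 36 members and below it 46, but scaling by median of ratios, under which the median of all genes went from -0.07 to 0.02, gave 71 and 11, and labelled sex in place of the surrogate variable gave 23 and 59. No direction of the family is therefore given for TA. Rpl3l had a log2 fold change of 0.03 (standard error 0.15) and Rpl3 of -0.07 (standard error 0.13), and the sign of both turned with labelled sex as the covariate and with which mouse was left out.

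**Figure D3:**
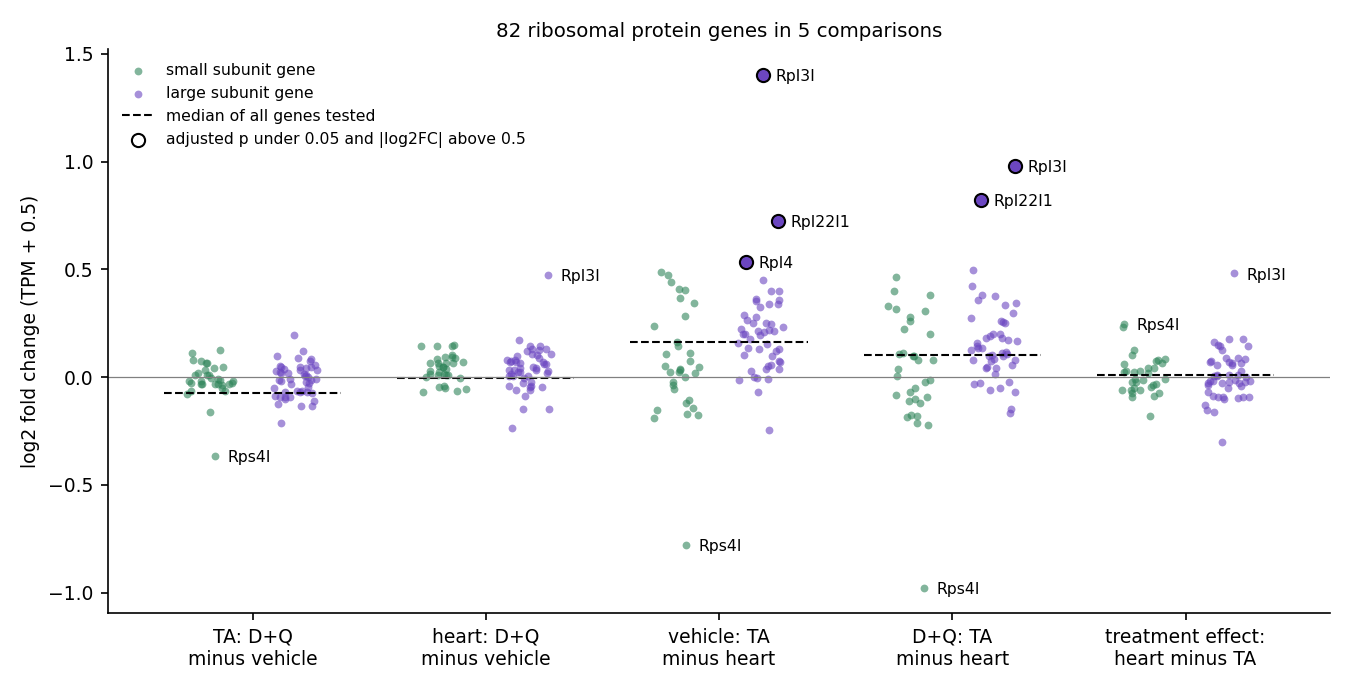
log2 fold change of each of the 82 members tested in the comparisons of treatment, of tissue and of the treatment effect between tissues, by subunit. Outlined points passed an adjusted p of 0.05 and a log2 fold change of 0.5 in size, and dashed lines give the median of all genes tested. The treatment comparisons hold 0 outlined points, and Rpl3l is highest in both tissue comparisons.

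In heart, where the model held labelled sex, 0 of 82 members were called with D+Q, against 0.316% of the 16132 genes tested. An unadjusted p under 0.05 was found for 5 members, all higher with D+Q, or 6.1% of the members against 17.6% of all genes. Rpl3l came first, with a log2 fold change of 0.47 (standard error 0.10, adjusted p = 0.105). Rpl24, a large subunit protein at the bridge to the small subunit, was at 150, 166, 168 and 156 TPM with vehicle and 181, 178 and 172 TPM with D+Q. It was higher in each D+Q heart than in any vehicle heart, with a log2 fold change of 0.13 (standard error 0.05, adjusted p = 0.223). Rpl23, at 142, 158, 169 and 138 TPM with vehicle and 166, 183 and 171 TPM with D+Q, overlapped, with a log2 fold change of 0.17 (standard error 0.07, adjusted p = 0.245).

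The stalk protein Rplp2 was at 251, 296, 291 and 275 TPM in vehicle heart and 303, 329 and 302 TPM in D+Q heart. Rpl19 was at 177, 191, 185 and 174 TPM with vehicle and 195, 205 and 197 TPM with D+Q. Both were higher in every D+Q heart, with log2 fold changes of 0.14 and 0.12 (adjusted p = 0.276 and 0.277). With Rpl3l, Rpl24 and Rpl22 they were the 5 members whose D+Q hearts all lay above the vehicle hearts, or 6.1% of the members where 9.63% of all genes did. In the lower direction this held for 0 members and 5.57% of all genes. Rpl3 had a log2 fold change of -0.24 (standard error 0.11, adjusted p = 0.330).

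Heart log2 fold changes of the members ran from -0.24 for Rpl3 to 0.47 for Rpl3l, with a median of 0.04 against -0.0025 for all genes. Above 0 there were 62 members and below it 20. With median-of-ratios scaling these were 66 and 16, but with sex read from Xist and Y-linked genes in place of the label they were 25 and 57. The direction of the family thus turned with the sex given to 1 mouse. In that fit the median of all genes moved as well, from -0.0025 to -0.052. Without vehicle replicate 3, the heart with the most Rpl3l of its group, Rpl3l was called (log2 fold change 0.57, adjusted p = 0.0496), and in the other 16 alternative fits it was not, with log2 fold changes from 0.36 and adjusted p up to 0.305.

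Other transcripts moved between the heart groups beside Rpl3l. The 6 ventricular genes summed to 22901 to 25387 TPM with vehicle and 28789 to 30360 TPM with D+Q, with 6 of 6 higher at an unadjusted p under 0.05 and 0 called. Among 5 atrial genes Myl7, Sln and Myl4 were called lower, and Nppa and Bmp10 had log2 fold changes of -1.61 and -2.76. Red-cell genes summed to 346 to 1231 TPM with vehicle and 26.8 to 122 TPM with D+Q, and 5 fibroblast genes to 537 to 752 and 429 to 502 TPM. The part of these shifts in the Rpl3l difference was not tested. In bulk tissue, fewer cells of a type and less RNA per cell cannot be told apart.

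The difference between the treatment effects, heart minus TA, was tested as an interaction over all 15 libraries, with labelled sex in the model. That label went against Xist and Y-linked genes in D+Q heart replicate 3, and sex read from expression was not tried in this fit. The interaction called 0 of 82 members, against 0.0616% of the 17868 genes tested. One member, Rpl3l, had an unadjusted p under 0.05 (log2 difference 0.48, standard error 0.20, adjusted p above 0.99), where 4.22% of all genes did. The next by p were Rps15a at 0.23, Rpl22 at 0.16, Rpl3 at -0.30 and Rpl23 at 0.15, each with an adjusted p above 0.99. The median over the members was -0.0049, with 40 above 0 and 42 below it.

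Between the tissues, vehicle TA was compared with vehicle heart with labelled sex in the model. Of the 82 members 3 were called higher in TA and 0 lower, against 24.1% and 14.8% of the 16893 genes tested. Rpl3l had a log2 fold change of 1.40 (standard error 0.15, adjusted p = 5.93e-05). Rpl4, whose product lines the exit tunnel of the large subunit, was at 283, 284, 260 and 257 TPM in TA and 176, 210, 196 and 168 TPM in heart, without overlap (0.53, standard error 0.10, adjusted p = 0.00191). Rpl22l1, whose level in TA replicate 4 fell among the hearts, had 0.72 (standard error 0.25, adjusted p = 0.0387). Rpl4 was called in 13 of 17 alternative fits and Rpl22l1 in 9, and of the 8 fits that left out 1 mouse Rpl22l1 kept its call in those without TA replicate 4 (0.99) and without heart replicate 3 (0.89).

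At an adjusted p under 0.05 alone, 17 members (20.73%) were higher in vehicle TA and 0 lower, where 29.1% and 16.3% of all genes were. With median-of-ratios scaling these members were 5 higher and 12 lower. Without TA replicate 4 they were 44 higher and 0 lower, and with another mouse left out 7 to 16 were higher. The median of all genes moved too, from 0.16 to 0.24 without TA replicate 4. Counts over all genes at an adjusted p alone are not given for these fits. No one direction of the members is therefore given. Groups did not overlap for 21 members, all higher in TA, or 25.61% of the members, against 26.7% of all genes higher and 15.3% lower. Rps26 and Rps2, which lie along the mRNA channel of the small subunit, and Rps27l stood next to Rpl3l and Rpl4 by p, with log2 fold changes of 0.49, 0.47 and 0.37. Rps26 was at 278 to 298 TPM in vehicle TA and 190 to 227 TPM in vehicle heart, and Rps2 at 228 to 299 and 178 to 208 TPM. The median over the members was 0.14, near the 0.16 of all genes.

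The calls shifted with scaling and with single mice. Median-of-ratios scaling moved the median of all genes from 0.16 to -0.0053 and the split of all calls from 4073 higher and 2499 lower to 2916 and 3343, and with it Rpl3l was called higher (1.21, adjusted p = 4.44e-05), Rps4l lower, and 36 members were above 0 and 46 below, against 66 and 16 as deposited. Rpl3l was higher and called in all 17 alternative fits, with log2 fold changes from 1.21 to 1.54. Without TA replicate 1 or without heart replicate 4, Rpl3l was the single member called. Without TA replicate 4 the calls rose to 10, with Rpl29, Rpl7l1, Rplp0, Rps2, Rps20 and Rps26 among those added to the 3. In that fit 4886 of all 16671 genes tested were called higher and 2243 lower, so calls higher in TA rose over all genes as well. Without TA replicate 3, Rpl3l and Rpl4 were called higher and Rps4l lower.

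With D+Q the same 2 paralogues stood out. TA against heart called 2 members higher and 0 lower, against 21.2% and 15.6% of the 16381 genes tested. Rpl3l had a log2 fold change of 0.98 (standard error 0.07, adjusted p = 1.77e-05) and Rpl22l1 of 0.82 (standard error 0.09, adjusted p = 0.000195). Both were higher in each of the 4 TA than in each of the 3 heart libraries. Both were called in every alternative fit apart from that with labelled sex, whose calls are not counted. That fit sets TA against D+Q heart replicate 3 alone, with log2 fold changes of 1.02 for Rpl3l and 0.80 for Rpl22l1. The vehicle and D+Q values of Rpl3l, 1.40 and 0.98, come from different mice, and the interaction of treatment and tissue for it did not pass the adjusted threshold.

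Rpl4 and Rps26 followed, at 0.50 and 0.46, each with an adjusted p under 0.05 and a size at or under 0.5. At an adjusted p alone 23 members (28.05%) were higher in D+Q TA and 0 lower, where 25.0% and 17.5% of all genes were. These counts were 9 and 7 with median-of-ratios scaling and 6 and 7 without the mitochondrial genome in the total. Without heart replicate 1 or 3 they were 6 and 5 higher. Over all genes, calls with the minimum fold change went from 3472 higher and 2556 lower to 2951 and 3064 with median-of-ratios scaling. Without the mitochondrial genome those calls were 3047 and 3045. With labelled sex in the model, TA is set against D+Q heart replicate 3 alone, so no count is given for that fit. Groups did not overlap for 24 members higher in TA (29.27%), against 28.2% of all genes, and for 3 members in the lower direction, Rpl19 and Rps4l among them, against 20.2% of all genes. Without TA replicate 4, Rps4l was called lower at -1.27. The median over the members was 0.10, as for all genes, and -0.0066 with median-of-ratios scaling, and 59 members were above 0 as deposited and 39 with that scaling.

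Because scaling acts on all members alike, each was also expressed as a share of the summed TPM of the 84 genes. For 19 members the shares of the 8 TA and 7 heart libraries did not overlap, 10 (11.9%) higher in TA and 9 (10.71%) higher in heart. Divided by the same sum, 15.5% of the 17868 genes that passed the filter did not overlap with TA higher and 14.4% with heart higher. Rpl3l took 1.05% to 1.46% of the sum in TA and 0.404% to 0.738% in heart. Rpl4, Rpl31 and Rpl6 of the large subunit and Rps26, Rps2, Rpsa and Rps27a of the small subunit were among the others with larger shares in TA. In heart, 9 members had larger shares, all of the small subunit. Rps29, a small zinc-binding protein, took 2.85% to 3.46% in heart and 1.79% to 2.73% in TA, Rps15 2.69% to 2.91% and 2.00% to 2.47%, and Rps27 3.02% to 3.27% and 2.51% to 2.90%. Rps10, Rps13, Rps9, Rps19 and Rps3 were also among the 9. The median log2 fold change of vehicle TA over vehicle heart was 0.04 for the 33 small and 0.20 for the 49 large subunit members tested, and with D+Q 0.04 and 0.14.

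**Figure D4:**
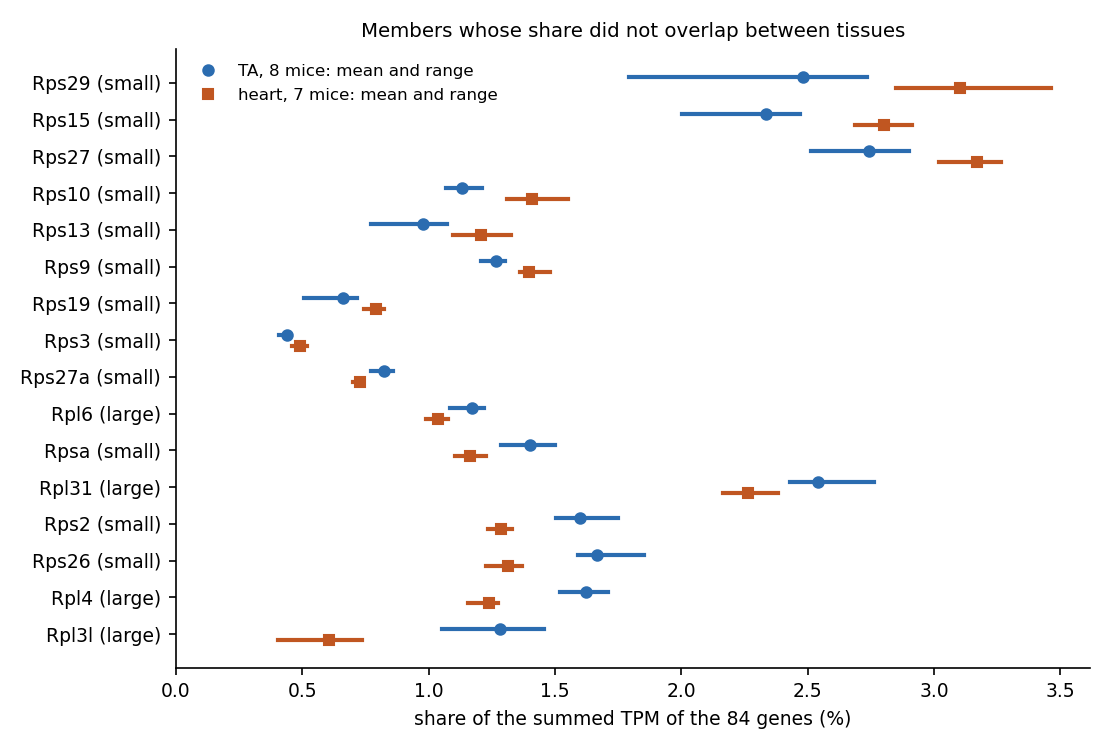
Share of the summed TPM of the 84 genes taken by 16 of the 19 members whose shares did not overlap between tissues, with the mean and the range over 8 TA and 7 heart libraries. The large subunit genes shown all lie higher in TA, and the genes shown that lie higher in heart are all of the small subunit.

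Rpl7, a large subunit protein, served as the reference gene of the qPCR in this study. The primer pair is printed because it shows which stretch the qPCR reads, a product of 202 bases from base 491 to base 692 of the canonical GENCODE M39 transcript, inside the coding sequence. The reverse primer matches the opposite strand.
Rpl7 forward: gaagctcatctatgagaaggc
Rpl7 reverse: aagacgaaggagctgcagaac
Rpl7 was at 178, 188, 173 and 164 TPM in vehicle TA, 168, 161, 167 and 188 TPM in D+Q TA, 134, 162, 139 and 141 TPM in vehicle heart and 155, 163 and 152 TPM in D+Q heart. The treatment groups overlapped in both tissues, and vehicle TA lay above vehicle heart without overlap. Treatment log2 fold changes were -0.05 (standard error 0.11) in TA and 0.11 (standard error 0.07) in heart, with adjusted p of 0.999 and 0.449. TA against heart gave 0.29 with vehicle (adjusted p = 0.0384) and 0.12 with D+Q (adjusted p = 0.236). Medians of all genes in these tissue comparisons were 0.16 and 0.10 as deposited. They were -0.0053 and 0.0065 with median-of-ratios scaling, so the tissue difference of Rpl7 depends on scaling. The coefficient of variation of Rpl7 over the 15 libraries was 10.04%, rank 36 of 81 members from the most even.

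Rplp0, the base of the ribosomal stalk and another common reference gene, was at 126, 131, 115 and 81.3 TPM in vehicle TA and 127, 111, 112 and 130 TPM in D+Q TA. In heart it was at 73.6, 96.7, 89.4 and 79.6 TPM with vehicle and 89.2, 103 and 88.2 TPM with D+Q. Its treatment log2 fold changes were 0.05 in TA and 0.11 in heart (adjusted p = 0.999 and 0.513). TA against heart gave 0.40 with vehicle (adjusted p = 0.0755) and 0.36 with D+Q (adjusted p = 0.0171), beside medians of all genes of 0.16 and 0.10. The coefficient of variation of Rplp0, 19.0%, put it at rank 76. Vehicle TA replicate 4 lay among the hearts, and the other 7 TA mice were above them all.

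Within TA, vehicle replicate 4 stood apart from the other libraries in these genes. It had the lowest level of the 8 TA libraries for 47 of the 82 members and the highest for 9. Relative to the median of the 8 libraries, its members had a median log2 deviation of -0.23 and an SD over members of 0.31, against -0.09 to 0.06 and 0.07 to 0.13 in the other 7. More than 0.3 below the TA median lay 35 of its members, and more than 0.3 above it 4, where the other libraries had at most 2 on either side. Rps14 was lowest at -1.10, followed by Rpl22l1 at -0.91, Rpl24 at -0.84 and Rpl18 at -0.77, and Rpl21 at 0.61, Rpl14 at 0.42, Rpl22 at 0.35 and Rpl19 at 0.31 were the 4 above. These values were chosen after they had been seen, and the same counts were not made over other genes. Other genes with a mean of at least 40 TPM in TA, 1831 in all, had a median deviation of -0.21 in this library, near that of the members. The SD over these other genes was 0.40 in this library, within the 0.32 to 0.67 of the other 7, unlike that of the members. Its share of mitochondrial transcripts was the highest in TA and the part of this in the members' spread was not tested.

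**Figure D5:**
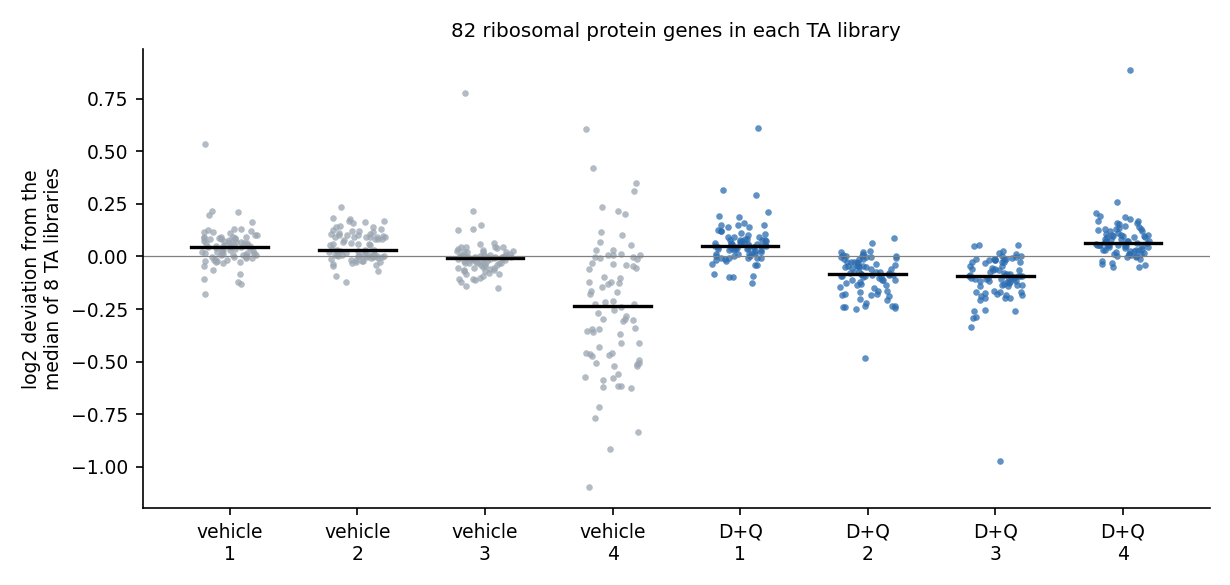
log2 deviation of each of 82 members from its median over the 8 TA libraries, with 1 column per mouse and a bar at the column's median. Vehicle replicate 4 is the column with a wide spread, its median at -0.23, while the other 7 medians lie between -0.09 and 0.06.

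The genes around the ribosome were read from lists chosen with earlier results of these data known. With D+Q in TA and in heart, 0 of 34 translation factors, 0 of 40 ribosome biogenesis genes, 0 of 20 genes of mTOR signalling and TOP mRNA control and 0 of the 4 ribosome components outside the naming rule were called. Of all genes tested, 0.0% were called in TA and 0.316% in heart. Vehicle TA exceeded vehicle heart for 10 of 34 translation factors, 22 of 40 biogenesis genes and 10 of 20 mTOR and TOP genes, with 0, 0 and 1 lower. Of all genes, 24.1% were higher and 14.8% lower. With D+Q these counts were 10, 13 and 8 higher and 0, 0 and 1 lower, where 21.2% of all genes were higher and 15.6% lower. The lists were fitted with the deposited scaling alone. With median-of-ratios scaling, calls over all genes between vehicle tissues went from 4073 higher and 2499 lower to 2916 and 3343. Median log2 fold changes of vehicle TA over vehicle heart were 0.39, 0.54 and 0.51 in the 3 lists, against 0.14 for the ribosomal protein genes and 0.16 for all genes. Among the called genes with the smallest p were the initiation factor Eif2s2 at 1.22, the elongation factor Eef1g at 1.17, Rrp12 of the small subunit processing machinery at 1.39, the mTOR inhibitor Deptor at 2.42, Eif4ebp2, which holds back cap-dependent translation, at 1.42, and Larp1, which binds TOP mRNAs, at 0.87. Of the 4 ribosome components outside the naming rule, 1 was called higher in TA, Rpl36al, the paralogue of Rpl36a. Its log2 fold change was 0.70 with vehicle and 0.64 with D+Q. The lowest value of the 4 was -0.45 with vehicle, where 0 were called lower, and -0.52 with D+Q, where 1 was called lower.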

How the data were processed

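Bulk RNA-seq of 15 libraries was read from 1 table. Per the labels and the study's methods, the authors made a poly(A) library per mouse, trimmed reads with Trim Galore 0.6.10, quantified transcripts with Salmon 1.10.3 on GRCm39, and summed them to genes with tximport, and the deposited values are TPM. The annotation release is not given in the sources used here, and symbols, biotypes and coding sequences were taken from GENCODE M39. TPM keeps no read depth, so no counting interval is given, and reads of near-identical genes are divided by Salmon's model.

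Each comparison was fitted over all genes with limma 3.58.1 in R 4.3.3 on log2(TPM + 0.5), which understates changes of low genes. Genes needed at least 0.5 TPM in 3 libraries, the variance trend was used, and p-values were adjusted by Benjamini-Hochberg over all genes tested. Covariates were 1 surrogate variable from 5 rounds in TA, labelled sex in heart, in the vehicle tissue comparison and in the interaction, and none in the D+Q tissue comparison. Ratios were tested by exact permutation (scipy 1.17.1), and figures drawn with matplotlib 3.10.9. The fits were tested on simulated data. Alternatives were other pseudocounts, filters, scalings, covariates and a replicate block, pseudogene rows summed into members, and each mouse left out. Same-numbered mice are different animals, and their deviations had mean correlations from -0.122 to 0.0142, so no block was used. Genes named are Rpl3, Rpl3l, the other paralogue pairs, Rpl7, Rplp0, the 5 highest and lowest per tissue, and per comparison the 5 called members with the smallest adjusted p or, where under 5 were called, the 5 with the smallest p. The members and lists were chosen with earlier results of these data known. A few members and related genes are not reported here by name.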

Additional observations from a re-analysis of the deposited data

Results flagged for a closer look

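Of 99 groups of 4 mice examined, 6 held 1 mouse far from the other 3, where chance sets apart about 1 in 20. In vehicle TA replicate 4, Rpl10 was the lowest of its group at 245 TPM, Rps27 the lowest at 381 TPM, Rpl14 the highest at 288 TPM, and the log2 ratio of Rpl3l to Rpl3 the lowest at 1.98. In vehicle heart replicate 2, Rpl3 was the highest of its group at 67.5 TPM and the log2 ratio of Rpl3l to Rpl3 the lowest at 0.015.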

How the results depend on the processing

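Over all results and alternatives, 462 values were labelled the same, 17 turned direction, 17 were weaker and 8 stronger. Another 3, medians over the members, moved by more than the spread between mice. A median within that spread was taken as the same whatever its sign, as was a count of calls that changed little. Single genes and the ratio were the same when they kept direction and side of the threshold. Weaker and stronger cover changed counts of calls, single-gene calls and the permutation p. That p cannot pass 0.05 in heart or between D+Q tissues with 1 mouse left out. In vehicle TA against vehicle heart, median-of-ratios scaling gave 1 member called higher, 1 lower and a median of -0.048. Dropping the minimum fold change gave 17 higher and 0 lower (5 and 12 if scaled by median of ratios as well). Leaving out 1 mouse gave 1 to 10 higher and 0 to 1 lower. Calls over all genes then ran from 3442 to 4886 higher and from 2183 to 2730 lower. In D+Q TA against D+Q heart, the median was -0.0066 with median-of-ratios scaling and 0.0069 without the mitochondrial genome in the total. Dropping the minimum fold change in this comparison gave 23 higher and 0 lower. The counts were 9 and 7 if scaled by median of ratios as well, and 6 and 7 without the mitochondrial genome. Leaving out 1 mouse between these tissues gave 0 to 1 lower. In heart, leaving out 1 mouse gave 0 to 1 higher with D+Q. The D+Q effect on Rpl3 in TA turned to 0.017 with median-of-ratios scaling, 0.020 without a covariate, 0.0047 with labelled sex and -0.15 to 0.010 over mice left out. That on Rpl3l in TA turned to -0.068 with labelled sex and ran from -0.11 to 0.092 over mice left out. Rpl3 between the D+Q tissues was 0.037 with labelled sex, a fit that sets TA against D+Q heart replicate 3 alone, and -0.12 to 0.074 over mice left out. The log2 ratio of Rpl3l to Rpl3 differed between TA groups by -0.022 with pseudogene rows added and by -0.085 to 0.15 over mice left out, between heart groups by 0.47 to 0.76, and between D+Q tissues by 0.89 to 1.12, where the smaller groups cannot pass 0.05. Apart from sizes that follow from fewer mice, the cause of these shifts was not tested.

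With the replicate number as a replicate block, the effect on Rpl3 in TA was 0.020, and the calls were 0 in TA, 0 in heart, 3 higher between vehicle tissues and 2 between D+Q tissues, as without it. At an adjusted p alone, the block gave 19 members higher between vehicle tissues and 6 between D+Q tissues. The numbers do not show a pairing of mice. Without read depth, low members such as Rps4l have no counting error to set beside their spread.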
